A study of Mus musculus with 20 samples.

Results

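The miR-200 family is a group of 5 related microRNA (miRNA) hairpins, miR-200a, miR-200b, miR-200c, miR-141 and miR-429, whose mature strands were measured here by small RNA sequencing of mouse liver. Every row of these 5 hairpins, on either arm, was taken as a member, which gave 9 of the 1509 mature miRNA rows in the deposited files. Livers of 5 PiZ mice were set against those of 5 wild-type (WT) mice. All 10 mice were C57BL/6 and 6 weeks old, whole liver was taken from each, and the 2 technical runs of a library were added up, leaving the mouse as the replicate. PiZ mice express the human Z form of alpha-1 antitrypsin from a transgene in hepatocytes, where the misfolded protein builds up in the endoplasmic reticulum, and they keep the mouse genes of the same inhibitor family. Nothing in these small RNA libraries checks the transgene, so genotype rests on the labels, and the labels give no sex.

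miR-200 family miRNAs are known as miRNAs of epithelial cells, where they repress Zeb1 and Zeb2, transcription factors that switch off E-cadherin and other epithelial genes. A miRNA finds its targets mainly through its seed, the bases near its 5′ end, and the family falls into a pair of seed groups that share part of their targets. In liver these miRNAs are known from bile duct epithelium (cholangiocytes), and hepatocytes, which make up most of the tissue, have little of them. The miRNAs that would mark bile duct cells here are the members themselves, and no mRNA was measured, so the cell type behind the signal could not be checked with other markers. In bulk tissue, more or fewer cells of a type and more or less RNA per cell cannot be told apart.

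The 3p strands, which make up nearly all family reads, differ at few bases. They are shown because the seed, given in capitals as bases 2 to 8 from the 5′ end, divides the family differently from the genome position. The 5p strand of miR-200a is added as the only 5p strand with enough reads to test. All 9 listed members matched a RefSeq mature miRNA (GRCm38.p6).
mmu-miR-200a-3p: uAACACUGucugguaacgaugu
mmu-miR-141-3p: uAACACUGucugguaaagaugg
mmu-miR-200b-3p: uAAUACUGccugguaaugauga
mmu-miR-200c-3p: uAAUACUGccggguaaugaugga
mmu-miR-429-3p: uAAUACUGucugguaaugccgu
mmu-miR-200a-5p: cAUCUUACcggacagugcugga
miR-200a-3p and miR-141-3p carry the seed AACACUG, while miR-200b-3p, miR-200c-3p and miR-429-3p carry AAUACUG. From miR-200a-3p to miR-200b-3p the seed changes by C4U, counted from the 5′ end. Within the first group, miR-141-3p and miR-200a-3p have the same first 16 bases and differ by A17C and G22U, written from miR-141-3p to miR-200a-3p. Within the second group, miR-200b-3p differs from miR-200c-3p by U11G and A22G over the 22 bases compared, and from miR-429-3p by C9U, A19C, U20C and A22U.

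The genome order cuts across the seeds. In GRCm38, miR-429-3p (chr4:156053916-156053937), miR-200a-3p (chr4:156054911-156054932) and miR-200b-3p (chr4:156055685-156055706) lie on the minus strand of chromosome 4, and their hairpins span 1846 bases within an intron of Ttll10, which runs on the same strand. miR-141-3p (chr6:124717917-124717938) and miR-200c-3p (chr6:124718324-124718346) lie on the minus strand of chromosome 6, with hairpins that span 477 bases inside an intron of the non-coding gene Gm15884. The nearest protein-coding genes there are Phb2, 963 bases from the miR-141 hairpin, and Ptpn6, 2316 bases from the miR-200c hairpin. Each cluster therefore holds 1 AACACUG member and at least 1 AAUACUG member. The deposited files name no genome build, and these positions come from the RefSeq and GENCODE annotation alone.

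Summed libraries held between 1307857 (WT mouse 1) and 10780801 reads (PiZ mouse 4). The files come with 2 feature lists, a longer one of 1399 rows for PiZ mice 1 and 2 and WT mice 1 to 3, and a shorter one of 990 rows for PiZ mice 3 to 5 and WT mice 4 and 5. All libraries with the longer list were shallower than all with the shorter one, so depth and list cannot be told apart, and the list was kept as a term of the model. Values are given as CPM (reads per 1000000 reads of the library) with TMM-scaled library sizes. A single read was worth 0.715 CPM in WT mouse 1 and 0.0887 CPM in PiZ mouse 4.

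The family was a small part of the liver miRNA pool in both genotypes. Its reads numbered 745, 760, 3194, 3421 and 1523 in PiZ mice 1 to 5, against 345, 458, 502, 1269 and 1934 in WT mice 1 to 5. As a share of all reads this was 0.0306%, 0.0303%, 0.0346%, 0.0317% and 0.0156% in PiZ mice 1 to 5, against 0.0264%, 0.0224%, 0.0329%, 0.0180% and 0.0193% in WT mice 1 to 5. PiZ mouse 5 had the lowest share of all 10 mice and the other 4 PiZ mice lay within or just above the WT range. The summed family stood at 282 ± 56.3 CPM over PiZ mice and 234 ± 34.4 CPM over WT mice (± SD, n = 5 each), and the groups overlapped.

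miR-200c-3p and miR-429-3p carried most of the family reads. miR-200c-3p made up 35.6% to 56.6% of them in a mouse and was the most abundant member, and miR-429-3p made up 22.7% to 42.1% and ranked 127 of 336 tested miRNAs by mean CPM. miR-200c-3p exceeded miR-429-3p in 4 PiZ and 4 WT mice and not in PiZ mouse 2 or WT mouse 2, so their order did not hold in every animal. miR-429-3p exceeded miR-200b-3p in all 10 mice, by 2.11 to 7.45 times in reads rounded to whole numbers. miR-200b-3p (rank 180), miR-200a-3p (rank 194) and miR-141-3p (rank 195) stood close together, and miR-200b-3p exceeded miR-200a-3p in 1 PiZ and 4 WT mice.

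**Figure D1:**
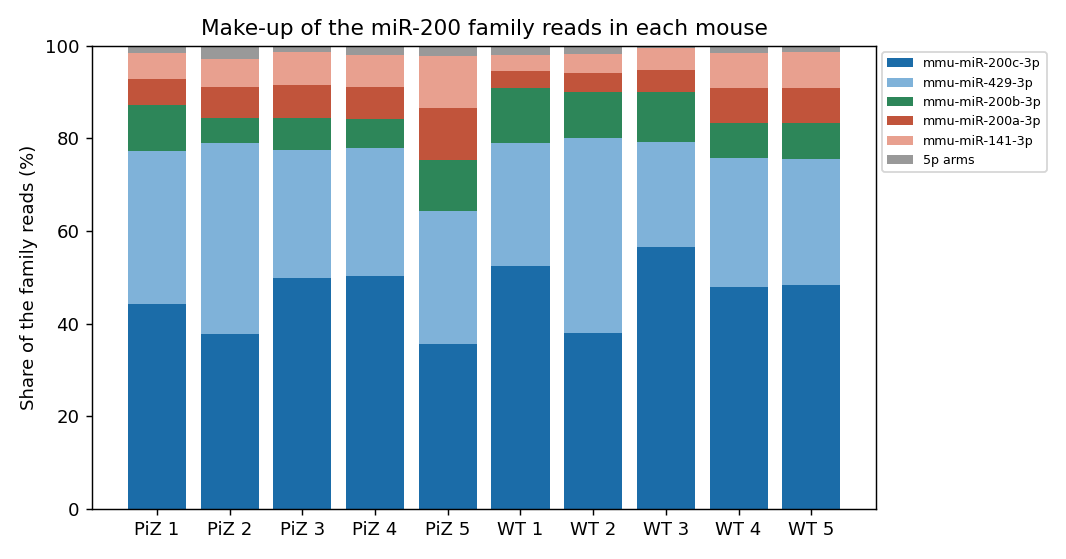
Share of the miR-200 family reads (%) held by each 3p strand and by the 5p strands together, 1 bar per mouse, PiZ mice left and WT mice right. miR-200c-3p and miR-429-3p fill most of every bar, and the miR-200a-3p and miR-141-3p parts are widest in PiZ mouse 5, at 11.3% each.

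Of the 9 listed members, 8 were in every file and 6 passed the filter on low counts and were tested. None of the 6 passed a Benjamini-Hochberg adjusted p of 0.05 between PiZ and WT liver in edgeR's quasi-likelihood test, a threshold that 9.23% of all 336 tested miRNAs passed. At an unadjusted p of 0.05, 3 of the 6 were higher in PiZ, miR-200a-3p, miR-141-3p and miR-200a-5p, against 18.8% of all tested miRNAs higher in PiZ at that level. The rows of miR-200a-3p and miR-141-3p are not separate measurements, as set out below, so these 3 rows hold fewer than 3 separate results. DESeq2 and limma-voom also called 0 of the 6, with 3 at an unadjusted p under 0.05 in each. In edgeR that count of 3 fell to 0 without PiZ mouse 1, without PiZ mouse 2 or with no filter, and to 1 with a minimum mean of 10 reads, and it was between 2 and 4 with any other mouse left out. In each of the fits just named where it fell to 0 or 1, TMM took WT mouse 1 as its reference, against PiZ mouse 1 in the main fit. With WT mouse 1 as reference and nothing else changed the count was 2. The count was also 0 in each feature list alone, where the reference was PiZ mouse 1 (longer list) and WT mouse 4 (shorter list). The cause of these drops was not tested. All 6 log2 fold changes were positive, with a median of 0.54 that counts the near-equal miR-200a-3p and miR-141-3p as 2 rows. However, miR-200b-3p turned negative when libraries were scaled against WT mouse 1 (-0.021). Over all tested miRNAs the median was 0.069 and 53.0% were positive.

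**Figure D2:**
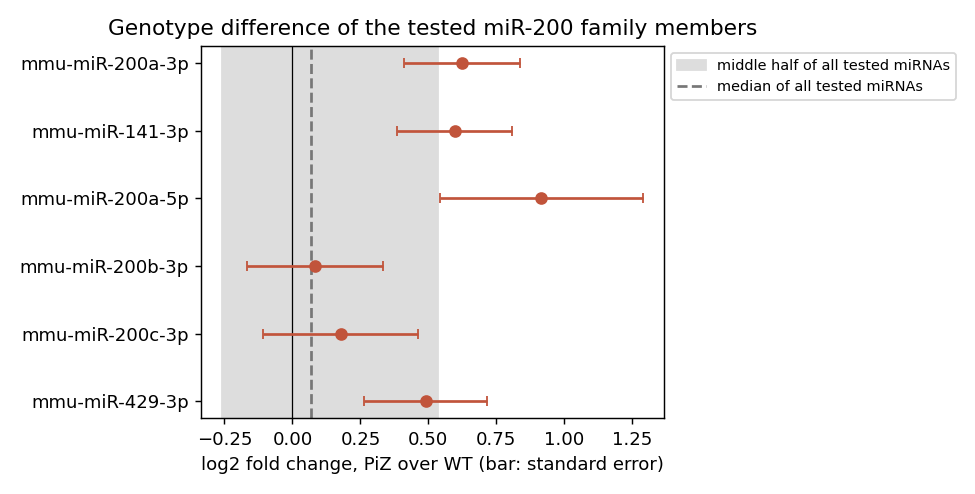
log2 fold change, PiZ over WT, of the 6 tested members (points, with bars for the standard error), against the median (dashed line) and the middle of the distribution (grey band, lower to upper quartile, -0.26 to 0.54) of all 336 tested miRNAs. miR-200a-3p, miR-141-3p and miR-200a-5p lie above the band, and miR-200b-3p (0.084), miR-200c-3p (0.18) and miR-429-3p (0.49) lie within it.

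The rows with the AACACUG seed, which are not separate measurements as set out below, did not overlap between genotypes, and neither passed the test. miR-200a-3p stood at 17.2, 19.7, 22.7, 21.3 and 20.6 CPM in PiZ mice 1 to 5, against 8.58, 9.91, 13.4, 14.5 and 16.3 CPM in WT mice 1 to 5. The lowest PiZ mouse lay above the highest WT mouse, which held for 6.55% of all tested miRNAs. The WT mice of the longer feature list were the lowest of all. The means were 20.3 ± 2.06 CPM over PiZ mice and 12.6 ± 3.22 CPM over WT mice (± SD, n = 5 each), with a log2 fold change of 0.62 (SE 0.21, unadjusted p = 0.0140, adjusted p = 0.109, edgeR). Without PiZ mouse 1 it was 0.40 (adjusted p = 0.398) and without PiZ mouse 2 it was 0.35 (adjusted p = 0.415), and in these fits the median of all miRNAs stood at -0.16 and -0.13.

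miR-141-3p, encoded in the other cluster, gave nearly the same values. It stood at 16.8, 18.5, 22.7, 21.1 and 20.6 CPM in PiZ mice 1 to 5, against 8.58, 9.91, 13.4, 14.5 and 16.1 CPM in WT mice 1 to 5. All 5 PiZ mice again lay above all WT mice, as 6.55% of all tested miRNAs did. The log2 fold change was 0.60 (SE 0.21, unadjusted p = 0.0165, adjusted p = 0.113, edgeR), against 0.37 without PiZ mouse 1 and 0.34 without PiZ mouse 2 (adjusted p = 0.432 and 0.420). In each feature list the direction was the same, with log2 fold changes of 0.79 (longer list) and 0.46 (shorter list) for miR-200a-3p and of 0.73 and 0.46 for miR-141-3p, and none of these passed the test.

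**Figure D3:**
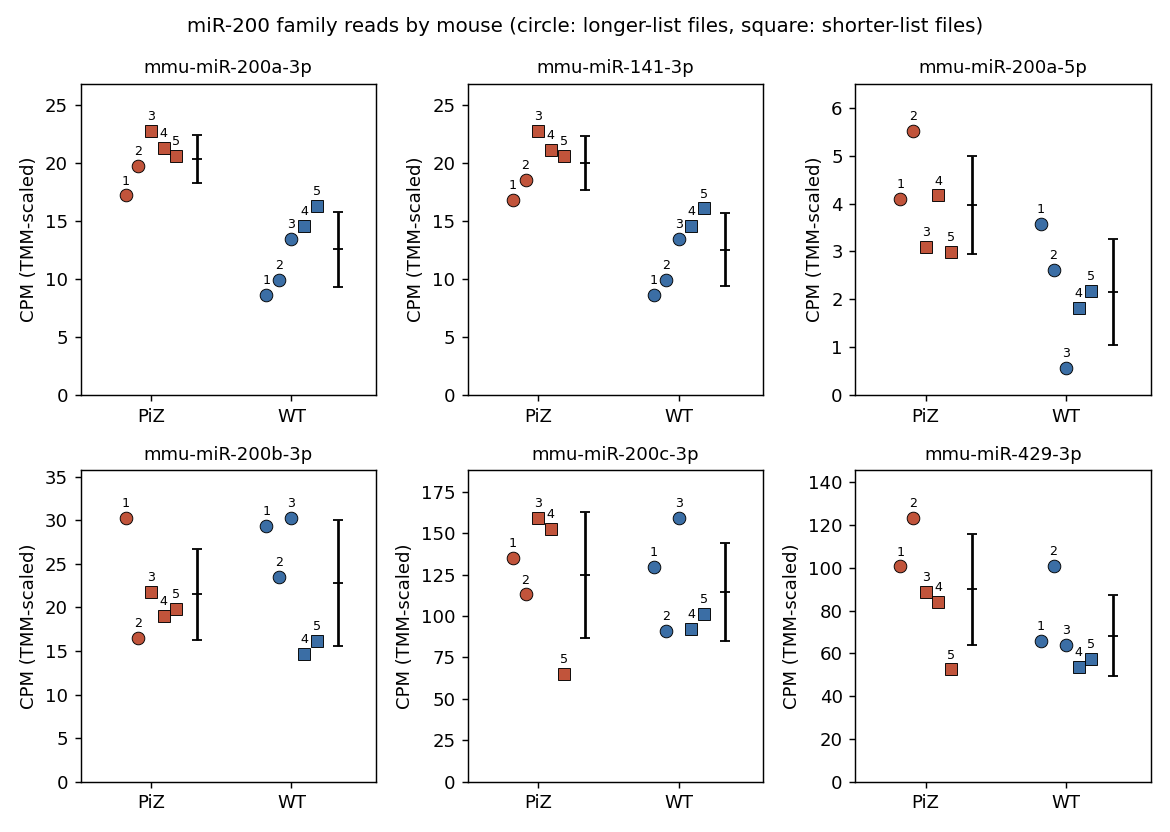
TMM-scaled CPM of the 6 tested members in each mouse (numbered points, circles for files with the longer feature list, squares for the shorter), PiZ left and WT right, with mean and SD bars (n = 5 each). All PiZ points lie above all WT points for miR-200a-3p and miR-141-3p, while for the other 4 members the groups overlap.

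The rows of miR-200a-3p and miR-141-3p are not separate measurements in these files. The counts were equal in 10 of 20 runs, miR-141-3p was lower in 9 and higher in 1, and the gap never exceeded 2 reads. Over all runs miR-200a-3p had 1033 reads and miR-141-3p 1024.5. The count was not a whole number in 10 runs for miR-200a-3p and in 9 runs for miR-141-3p, but their sum was whole in 19 runs and the sum of the whole family in all 20 (within 0.001 reads).

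Among the 334 rows with at least 100 reads, no other pair stayed within 2 reads of each other in every run. Fractional counts were rarer in the other group, with 3 runs for miR-200b-3p, 2 for miR-429-3p and 0 for miR-200c-3p. The sequences printed above show the 16 leading bases that miR-200a-3p and miR-141-3p share, and the sources used here do not give how reads that match both were assigned. The values of these miRNAs are therefore best read as 1 quantity, their sum, and say nothing of which cluster the reads came from.

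**Figure D4:**
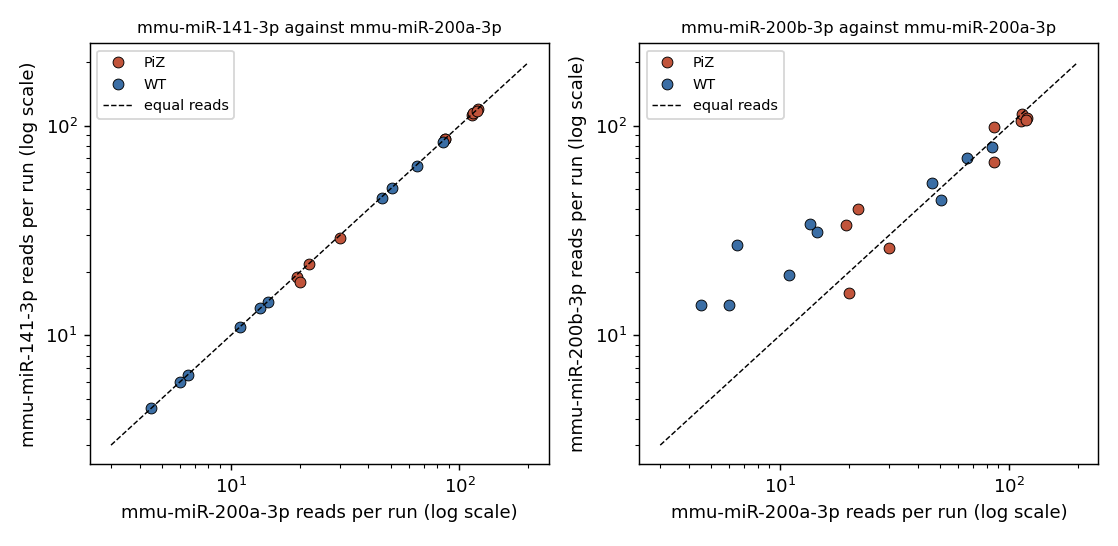
Reads per run (both axes on a log scale) of miR-141-3p (left) and miR-200b-3p (right) against miR-200a-3p in all 20 runs, with a dashed line for equal reads. The miR-141-3p points follow the line, with gaps of at most 2 reads, while the miR-200b-3p points spread around it.

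As a sum, the AACACUG pair stood at 34.0, 38.2, 45.4, 42.4 and 41.1 CPM in PiZ mice 1 to 5, against 17.2, 19.8, 26.9, 29.1 and 32.3 CPM in WT mice 1 to 5. All PiZ mice lay above all WT mice, as for 6.55% of all tested miRNAs. The means were 40.2 ± 4.36 CPM over PiZ mice and 25.1 ± 6.37 CPM over WT mice (± SD, n = 5 each). Entered as a single row with the scaling unchanged, the pair had a log2 fold change of 0.60 (SE 0.21, adjusted p = 0.109, edgeR), which did not pass.

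miR-200a-5p, the strand opposite miR-200a-3p, was counted in its own reads and is far less abundant (rank 296). It had 10, 14, 31, 47 and 25 reads in PiZ mice 1 to 5, against 5, 5, 1, 12 and 20 reads in WT mice 1 to 5. In CPM this was 4.09, 5.52, 3.10, 4.17 and 2.99 in PiZ mice 1 to 5, against 3.57, 2.61, 0.560, 1.82 and 2.17 in WT mice 1 to 5. PiZ mice 1, 2 and 4 lay above all WT mice, and PiZ mice 3 and 5 lay below WT mouse 1, whose value rests on 5 reads. The log2 fold change was 0.92 (SE 0.37, unadjusted p = 0.0319, adjusted p = 0.155, edgeR).

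The miRNAs with the AAUACUG seed overlapped between genotypes. miR-429-3p stood at 101, 123, 88.9, 84.1 and 52.5 CPM in PiZ mice 1 to 5, against 65.8, 101, 63.8, 53.6 and 57.3 CPM in WT mice 1 to 5. PiZ mouse 2 was the highest and PiZ mouse 5 the lowest of all mice. Its means were 89.9 ± 25.8 CPM over PiZ mice and 68.2 ± 18.8 CPM over WT mice (± SD, n = 5 each; PiZ over WT on the log2 scale 0.49, SE 0.23, adjusted p = 0.205, edgeR).

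miR-200c-3p stood at 135, 113, 159, 152 and 64.8 CPM in PiZ mice 1 to 5, against 129, 90.8, 159, 92.0 and 101 CPM in WT mice 1 to 5. PiZ mouse 5 was again the lowest of all mice, and PiZ mouse 3 and WT mouse 3 shared the top. The means of 125 ± 38.0 CPM over PiZ mice and 114 ± 29.4 CPM over WT mice (± SD, n = 5 each) differed by less than either SD (log2 fold change 0.18, SE 0.28, adjusted p = 0.767, edgeR).

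miR-200b-3p stood at 30.3, 16.5, 21.8, 19.0 and 19.8 CPM in PiZ mice 1 to 5, against 29.3, 23.5, 30.2, 14.7 and 16.2 CPM in WT mice 1 to 5. High values came from PiZ mouse 1 and from WT mice 1 to 3, all of them libraries of the longer list. PiZ mouse 2, also of the longer list, had the lowest PiZ value (16.5 CPM). The means were 21.5 ± 5.26 CPM over PiZ mice and 22.8 ± 7.21 CPM over WT mice (± SD, n = 5 each; PiZ over WT on the log2 scale 0.084, SE 0.25, adjusted p = 0.891, edgeR). Within the longer list its log2 fold change was -0.25 and within the shorter list 0.37, and for miR-200c-3p these were -0.032 and 0.37, so neither had the same sign in both.

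The genotype difference was also tested for a difference between the feature lists. None of the 6 members passed that interaction test in edgeR, and of the 372 miRNAs tested 0% passed, with 16 at an unadjusted p under 0.05 and no member among them. The difference of log2 fold changes, shorter minus longer list, was 0.57 (SE 0.48, adjusted p = 0.872) for miR-200b-3p, -0.36 (SE 0.44, adjusted p = 0.872) for miR-200a-3p and 0.35 (SE 0.58, adjusted p = 0.908) for miR-200c-3p. With these standard errors, differences of this size were not detectable.

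Members encoded side by side were then compared as read ratios, which no library scaling enters. The log2 ratio of miR-200a-3p over miR-200b-3p, neighbours on chromosome 4 with different seeds, was -0.82, 0.25, 0.058, 0.16 and 0.055 in PiZ mice 1 to 5, against -1.67, -1.22, -1.11, -0.0074 and 0.0096 in WT mice 1 to 5. PiZ mice 2 to 5 lay above all WT mice, and PiZ mouse 1 lay between WT mice 3 and 4. The means were -0.059 ± 0.43 over PiZ mice and -0.80 ± 0.76 over WT mice (± SD, n = 5 each), a difference of 0.74 (exact two-sided permutation p = 0.0556, adjusted over 3 ratios 0.167; the smallest p that 5 against 5 allows is 0.00794).

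Within the lists the difference was 1.05 among the longer-list mice (means -0.28 in PiZ and -1.34 in WT) and 0.090 among the shorter-list mice (means 0.091 in PiZ and 0.0011 in WT), each with an exact permutation p of 0.2, the smallest that 2 against 3 mice allow. The gap between the lists was not itself tested, and in the longer-list libraries miR-200a-3p had 12.5 to 50 reads a mouse.

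On chromosome 6, the log2 ratio of miR-141-3p over miR-200c-3p was -2.99, -2.60, -2.81, -2.85 and -1.65 in PiZ mice 1 to 5, against -3.80, -3.16, -3.51, -2.66 and -2.65 in WT mice 1 to 5. PiZ mouse 5 stood highest and the groups overlapped. The means were -2.58 ± 0.54 over PiZ mice and -3.16 ± 0.51 over WT mice (± SD, n = 5 each), a difference of 0.58 (exact two-sided permutation p = 0.127, adjusted 0.190). Within the lists it was 0.70 (longer, exact p = 0.2) and 0.22 (shorter, exact p = 1). The ratio of miR-141-3p over miR-200a-3p differed by -0.017 (exact p = 0.563), as their near-equal counts require. The first 2 ratios share one measurement through that pair and are not independent of each other.

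**Figure D5:**
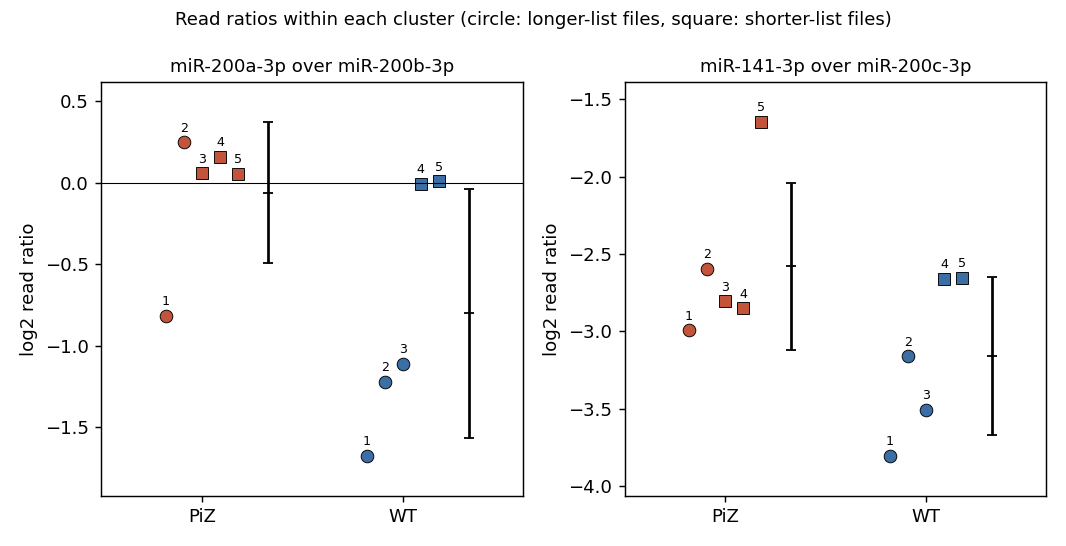
log2 read ratio of miR-200a-3p over miR-200b-3p (left) and of miR-141-3p over miR-200c-3p (right) in each mouse (circles for the longer feature list, squares for the shorter), PiZ left and WT right of each panel, with mean and SD bars (n = 5 each). For the chromosome 4 pair WT mice 1 to 3 lie lowest, between -1.67 and -1.11, and for the chromosome 6 pair PiZ mouse 5 stands apart at -1.65.

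Grouped by cluster, the summed chromosome 4 members stood at 136 ± 26.3 CPM over PiZ mice and 106 ± 19.9 CPM over WT mice, and the chromosome 6 members at 146 ± 38.7 CPM over PiZ mice and 127 ± 28.9 CPM over WT mice (± SD, n = 5 each). The chromosome 6 cluster made up 44.6% to 57.5% of the family reads in PiZ and 42.6% to 61.4% in WT mice, so the clusters contributed about equally, subject to the shared counts of miR-200a-3p and miR-141-3p. Grouped by seed, the AAUACUG members stood at 236 ± 55.9 CPM over PiZ mice and 205 ± 37.8 CPM over WT mice (± SD, n = 5 each), and the AACACUG pair made up 11.1% to 22.6% of the family reads in PiZ and 6.96% to 15.4% in WT mice.

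PiZ mouse 5 had low levels of part of the family only. Its miR-200c-3p (64.8 CPM) and miR-429-3p (52.5 CPM) were the lowest of all 10 mice, while its miR-200a-3p and miR-141-3p (20.6 CPM each) lay with the other PiZ mice. The AACACUG pair accordingly held 22.6% of its family reads, the highest share of any mouse. WT mice 1 and 3 and PiZ mouse 5 stood apart from their groups in an earlier analysis of these files, and the fit was repeated without them. Without WT mice 1 and 3, 0 of 6 members and 0 of 410 miRNAs passed, with 3 members and 104 miRNAs at an unadjusted p under 0.05. Without PiZ mouse 5 as well, 3 of 6 rows passed (miR-200a-3p 0.62 and miR-141-3p 0.60 on the log2 scale, adjusted p = 0.0383 each, and miR-200c-3p 0.58, adjusted p = 0.0246, edgeR), as did 100 of the 390 miRNAs then tested. The first 2 of these rows are 1 quantity. Leaving out the mouse with the lowest miR-200c-3p of all 10 raises the PiZ mean of that miRNA by construction. WT mice 1 and 3 had the highest miR-200c-3p of the WT mice (129 and 159 CPM), so leaving them out lowers its WT mean. Without these WT mice alone its log2 fold change was 0.37, against 0.18 in the main fit. These calls are therefore a description only.

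The remaining 5p strands were at the limit of detection. miR-141-5p had 22 reads over the 5 PiZ mice and 5 over the 5 WT mice, and miR-200b-5p had 23 over the PiZ mice and 14 over the WT mice. A floor of 3 reads was 2.14 CPM in WT mouse 1 and 0.359 CPM in PiZ mouse 5, and neither strand was tested. miR-200c-5p is listed only in the shorter feature list, with 1 read each in PiZ mice 4 and 5 and 0 in PiZ mouse 3 and WT mice 4 and 5. miR-429-5p was not analysed here.

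As counted, the 5p strand held a larger part of the miR-200a reads than of the miR-200b or miR-141 reads. With the mice of a genotype pooled, it made up 14.8% of miR-200a reads in PiZ liver (95% exact interval 12.5% to 17.4%, counting error only). In WT liver it made up 12.5% (9.20% to 16.5%). By mouse the miR-200a share was 16.4 ± 4.21% in PiZ (12.0% to 21.9%) and 15.4 ± 9.84% in WT (4% to 29.4%; ± SD, n = 5 each). The pooled shares were 3.12% in PiZ and 3.50% in WT liver for miR-200b, and 2.95% in PiZ and 1.64% in WT liver for miR-141. The miR-200a and miR-141 shares have shared 3p counts in their totals, so the order of miR-200a and miR-141 rests on how those reads were divided. No member hairpin reached a mean of 20 reads on each arm, the minimum for the arm test, in which 0% of 64 hairpins passed in limma (2 at an unadjusted p under 0.05). With a minimum of 5 reads, miR-200a was tested and its log2 5p over 3p difference of 0.35 (SE 0.48, adjusted p = 0.784, limma) did not pass.

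The technical runs differed most for the members with few reads. The log2 ratio of a member's share in run 2 over run 1 lay between -0.20 and 0.17 over the 10 mice for miR-200c-3p, between -0.22 and 0.47 for miR-429-3p and between -0.35 and 0.54 for miR-200b-3p. For miR-200a-3p and miR-141-3p it lay between -0.89 and 0.61, and both ends came from longer-list libraries (WT mouse 2 with 14.5 and 4.5 miR-200a-3p reads in runs 1 and 2, and WT mouse 1 with 6.5 and 6). For miR-200a-5p, the tested member with the fewest reads, it lay between -0.61 and 1.56 over the 9 mice with reads in both runs. The upper end of miR-200a-5p came from WT mouse 4, a shorter-list library with 3 and 9 reads.

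The miRNAs whose profiles over the 10 mice were most like the summed family were miR-148b-3p, miR-1968-5p, miR-425-5p, miR-27a-3p and miR-186-5p. Likeness was the root mean square distance of log2 CPM, each centred on its own mean, and was 0.188, 0.237, 0.273, 0.281 and 0.284 for these 5, against a median of 0.607 over the 330 tested non-members. miR-200c-3p (0.213) and miR-429-3p (0.266), which fill most of the sum, lay among them, and miR-200a-3p (0.460), miR-141-3p (0.458) and miR-200a-5p (0.690) lay farther from the family sum. None of the 5 passed the genotype test, and miR-27a-3p came nearest, with a log2 fold change of 0.45 (SE 0.17, adjusted p = 0.121, edgeR).

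miRNAs known from other cell types were counted beside the family. Of the other epithelial list (miR-203, miR-205, the miR-183 cluster, miR-375 and miR-31) 9 of 13 rows were tested, 0 passed and 4 had positive log2 fold changes, with a median of -0.0008. Its most abundant member, miR-31-5p, stood at 631 ± 104 CPM over PiZ mice and 924 ± 231 CPM over WT mice (± SD, n = 5 each; PiZ over WT on the log2 scale -0.56, SE 0.22, adjusted p = 0.133, edgeR). The log2 fold changes of the 9 rows ran from -0.56 to 0.95, and the 4 positive ones were those of miR-205-5p (0.95), miR-182-5p (0.90), miR-183-5p (0.49) and miR-96-5p (0.44), named here after their values were seen. The list's summed level ran from 1193 to 1735 CPM in PiZ and from 1271 to 1835 CPM in WT mice.

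In the mesenchymal list (led by miR-143-3p) 0 of 9 tested rows passed, with a median log2 fold change of 0.16, and in the endothelial list (miR-126a) 0 of 2, with a median of 0.074. The hepatocyte list, led by miR-192-5p, had 0 of 7 and a median of 0.053, with 4 rows positive and the others negative. Named after their values were seen, miR-802-5p (1.34) and miR-802-3p (0.78) lay highest, and miR-122-5p (-0.48), miR-194-5p (-0.46) and miR-192-3p (-0.45) lowest. The summed level of the list ran from 122330 to 250600 CPM in PiZ and from 62889 to 239051 CPM in WT mice. miR-192-5p alone averaged 151623 CPM over PiZ and 137174 CPM over WT mice and so set most of that sum. The immune list had 0 of 6 passing and a median of 0.59, with 4 rows positive and the others negative. Its summed level ran from 1895 to 3036 CPM in PiZ and from 912 to 2171 CPM in WT mice, led by miR-142-5p (log2 fold change 1.03, SE 0.49, adjusted p = 0.216, edgeR). The erythroid list had 0 of 4 passing, a median of 1.34 and summed levels of 310 to 1753 CPM in PiZ and 260 to 1080 CPM in WT mice.

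The pancreas list stood apart, and pancreas is also an epithelial organ that expresses the miR-200 family. Of its 7 rows 4 were tested and 2, miR-216b-5p (adjusted p = 0.00303) and miR-217-5p (adjusted p = 0.0297, edgeR), were higher in PiZ. Over all 336 tested miRNAs 9.23% passed. miR-216a-5p (log2 fold change 4.12, adjusted p = 0.0579, edgeR) did not pass. It stood at 4.91, 7.49, 10.9, 2.40 and 0.120 CPM in PiZ mice 1 to 5, against 2.14, 0.522, 0, 0.152 and 0 CPM in WT mice 1 to 5. miR-216b-5p stood at 13.1, 21.7, 43.2, 10.3 and 1.32 CPM in PiZ mice 1 to 5, against 0.152 CPM in WT mouse 4 and 0 in the other WT mice. miR-217-5p stood at 2.46, 5.12, 11.9, 3.99 and 0 CPM in PiZ mice 1 to 5, against 0.152 CPM in WT mouse 4 and 0 in the other WT mice. miR-375-3p, which marks endocrine islets and belongs to the epithelial list too, stood at 10.2 ± 4.09 CPM over PiZ mice and 10.2 ± 3.67 CPM over WT mice (± SD, n = 5 each).

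The summed pancreas list stood at 27.0, 50.0, 85.4, 28.0 and 12.2 CPM in PiZ mice 1 to 5. In WT mice 1 to 5 it stood at 17.2, 5.74, 8.40, 12.3 and 10.5 CPM. Of the 12.2 CPM in PiZ mouse 5, miR-375-3p made up 10.8 CPM, with miR-216b-5p at 1.32 CPM and miR-217-5p at 0. The part of the pancreas, immune and erythroid miRNAs in the family's values was not tested in any mouse.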

How the data were processed

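Small RNA of 10 livers was sequenced in 2 technical runs each. Per the labels' protocols, RNA was enriched for miRNA with the miRNeasy kit and made into TruSeq small RNA libraries. The authors deposited estimated counts per mature miRNA for each of 20 runs, per the file headers, and some are not whole. The submitters' processing notes name CASAVA. Not given in the sources used here are the aligner, the genome build, the miRBase release and how reads matching several miRNAs were counted.

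Runs were summed per mouse and rounded to whole numbers for the count test, the CPM values, the family's reads and shares, and the arm balance. The 880 miRNAs listed in every file hold at least 99.9991% of the reads of each. Of these, filterByExpr kept 336, which entered edgeR 4.0.16 after TMM scaling (quasi-likelihood F-test, feature list and genotype as terms, Benjamini-Hochberg adjustment over all 336, threshold 0.05). Standard errors were taken as the absolute log2 fold change over the root of the F statistic. Arms were tested with limma 3.58.1 and read ratios with exact permutation in scipy 1.17.1, both with a pseudocount of 0.5. Profile distances used a prior count of 2. DESeq2 1.42.0 and limma-voom were alternatives, in R 4.3.3, and figures were drawn with matplotlib 3.10.9 under Python 3.11.15. The scripts were tested on simulated data.

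Every row of the 5 hairpins is named, with the 5 nearest non-member profiles and, from each comparison list, the most abundant miRNA and any that passed. Further rows of the epithelial, hepatocyte and pancreas lists were named after their values were seen. The members and the lists were chosen with earlier results of these data known, so their directions are not independent support. The labels do not say how the mice were housed or bred, and p-values measure the spread between these 10 libraries. Depth limits rare strands: counting intervals cover reads only, which are not independent molecules.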

Additional observations from a re-analysis of the deposited data

Results flagged for a closer look

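Of 18 groups of 5 mice examined, 2 had a lowest or highest mouse whose gap to its nearest neighbour was over 0.71 of the group's whole range, and chance flags about 1 in 20 groups. The log2 ratio of miR-200a-3p over miR-200b-3p in PiZ liver had such a gap of 0.818 of the range, with PiZ mouse 1 lowest at -0.82 and the other PiZ mice between 0.055 and 0.25. The log2 ratio of miR-141-3p over miR-200a-3p in PiZ liver had a gap of 0.804, with PiZ mouse 2 lowest at -0.088. In that mouse the rows held 47 and 50 reads, so the gap amounts to 3 reads.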

How the results depend on the processing

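No paired analysis was possible because the replicate numbers of the labels name technical runs, and PiZ and WT mouse numbers name different animals. The log2 fold changes of miR-200a-3p (0.35 to 0.80), miR-141-3p (0.34 to 0.77) and miR-429-3p (0.21 to 0.63) were positive under all 33 alternatives that kept the members apart, with adjusted p from 0.0383 to 0.602, 0.0383 to 0.632 and 0.0570 to 0.713. miR-200a-5p ran from 0.60 to 1.02 under the 30 of these in which it was tested, and it was not tested in run 1, in the longer list or without PiZ mouse 4. miR-200b-3p was negative with genotype only (-0.033), in the longer list (-0.25), with a minimum mean of 10 reads (-0.046), with no filter (-0.010), in run 1 (-0.039) and with TMM against WT mouse 1 (-0.021), and ran from -0.24 to 0.10 with each mouse left out. miR-200c-3p was negative in the longer list (-0.032) and ran from -0.040 to 0.34 with each mouse left out, the lowest without PiZ mouse 1. Members called stayed at 0 with each mouse left out, and 3 were called without WT mice 1 and 3 and PiZ mouse 5. Over all miRNAs, 31 were called, against 50 in DESeq2, 7 in limma-voom, 17 with genotype only, 18 with a minimum mean of 10 reads, 83 with no filter, 18 in run 2, 0 in the shorter list, 0 without WT mice 1 and 3 (104 at an unadjusted p under 0.05), 100 without those and PiZ mouse 5, and 5 to 46 with each mouse left out (5 without WT mouse 4, 46 without PiZ mouse 5). The difference in miR-200a-3p over miR-200b-3p passed without PiZ mouse 1 (0.93, exact permutation, adjusted p = 0.0476) and ran from 0.52 to 0.94 with each mouse left out. That in miR-141-3p over miR-200c-3p passed in run 2 (0.72, exact permutation, adjusted p = 0.0238) and ran from 0.35 to 0.70. That in miR-141-3p over miR-200a-3p was 0.013 in the shorter list and ran from -0.023 to -0.00049. The cause of these shifts was not tested. TMM against WT mouse 1 moved the median log2 fold change of all miRNAs to -0.048, against 0.069, with 29 called; this scaling and those against each other mouse, and the seed pair tested with factors held, were chosen after seeing the data. Rebuilding the scaling with seed mates summed also took WT mouse 1 and gave 0.49 for the AACACUG row (adjusted p = 0.173) and 0.17 for the AAUACUG row (0.684). Depth limits miR-200a-5p, and the other 5p strands could not be tested.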

Other observations

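The 5p seeds group the hairpins differently from the 3p seeds. miR-200a-5p and miR-200b-5p share the seed AUCUUAC, while miR-141-5p carries AUCUUCC and miR-200c-5p carries GUCUUAC, so the strands opposite miR-200a-3p and miR-200b-3p have a seed in common where the 3p strands do not. In reads rounded to whole numbers, the 3p strand exceeded the 5p strand in all 10 mice for miR-200a, by 2.40 to 24.0 times, and for miR-200b, by 13.9 to 74.0 times. For miR-141 it did so in all 10 mice too. For miR-200a and miR-141 this rests on 3p counts that are not separate measurements.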
